A study of Mus musculus with 4 samples.

Results

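The Rab GTPases are the largest branch of the Ras superfamily of small GTP-binding proteins, and their genes were compared between macrophages grown from mouse bone marrow in GM-CSF and in M-CSF. A gene was taken as a member when the array annotation gave its probe set a single symbol that begins with Rab and a digit and carries none of the letters gap, fip, ip, ep or if after the number, which left out 9 regulators and effectors. Of 19938 genes with a single symbol, 61 met these letters. Rab3il1, an exchange factor that loads Rab proteins with GTP, and Rab10os, a transcript opposite Rab10, met them without being Rab GTPases and were counted apart, so 59 GTPase genes were described. Of these, 54 passed the filter on low values and were tested.

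Cells of the GM-CSF M1 group grew for 7 days with GM-CSF, the granulocyte-macrophage colony-stimulating factor, and were sorted as CD45+, MHCII+, CD8a- and F4/80+, and cells of the M-CSF M2 group grew for 7 days with 20% supernatant of L929 fibroblasts, the source of M-CSF (macrophage colony-stimulating factor), and were sorted as CD45+, F4/80+ and CD11b+. Marrow came from C57BL/6J mice in both groups, and no genetic change is named in the labels. Each group had 2 arrays, and values are log2 expression per probe set from RMA, so a difference of 1 is a 2-fold change and levels of different genes are not set against each other. Growth factor, the L929 supernatant and the sort gate differed together and cannot be told apart, and in such sorted bulk samples fewer cells of a type and less RNA per cell cannot be told apart. Nothing in the labels ties a replicate to its own culture or mouse, so the spread behind the p-values is that of these arrays alone. It may be technical in M-CSF M2, while the GM-CSF M1 arrays differed in Xist, given with the markers, and the labels used here give no sex.

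A Rab protein switches between a GTP-bound form that sits on a membrane and a GDP-bound form that a carrier protein holds in the cytosol. On the membrane it recruits effectors such as tethers, motors and lipid kinases, and so gives each organelle of the secretory and endocytic routes its own identity. Exchange factors switch a Rab on, and GTPase-activating proteins switch it off. In macrophages, Rab proteins are known for moving a phagosome from early to late, lysosome-like stages, for sending receptors back to the surface, and for the release of cytokines and granule contents.

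All 8 macrophage markers measured lay above the background level on average, with mean log2 levels of 11.84 and 11.96 on the GM-CSF M1 arrays, against 11.61 and 11.54 on the M-CSF M2 arrays. Cd14, the co-receptor for lipopolysaccharide, was the 1 macrophage marker that passed, higher in GM-CSF M1 (log2 1.66, limma adjusted p = 0.00057). The background level, 5.90, is the 95th percentile of olfactory receptor genes averaged over the arrays. The dendritic cell list read 6.80 and 6.56 in GM-CSF M1, against 5.60 and 5.64 in M-CSF M2, and 3 of its 8 markers (Itgax, Clec9a and Ccr7) were higher in GM-CSF M1, while Flt3, Xcr1 and Siglech lay below background on every array. The B cell marker Cd79b was lower in GM-CSF M1 (-2.36) and the fibroblast marker Dcn higher (1.07). The 4 other fibroblast markers tested differed the other way and did not pass, and the median of the list was -0.16. On every array, 3 of 5 B cell, 2 of 6 fibroblast, 6 of 7 T and NK cell and 2 of 2 erythroid markers lay below background. Of the 7 cell cycle genes, 0 passed (0 at an unadjusted p under 0.05), against 10.7% of all genes. The part of these cells in any difference below was not tested. GM-CSF M1 replicate 1 stood apart in Xist, a marker of X inactivation, which read 11.58 there and 4.93 in GM-CSF M1 replicate 2, against 4.53 and 4.80 in M-CSF M2. Of the 4 X-linked Rab genes, 3 were tested and 0 passed (limma, with 1, Rab33a, at an unadjusted p under 0.05). Rab33a lay below background on average in both groups.

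Most Rab genes differed little between the groups, and 10 of the 54 tested passed the test, 4 of them higher in GM-CSF M1 (Rab19, Rab3d, Rab27a and Rab29) and 6 lower (Rab38, Rab4a, Rab31, Rab39, Rab10 and Rab1a). The test was limma with Benjamini-Hochberg adjustment over all 14995 genes and a threshold of 0.05. Of all genes tested, 10.7% passed, 6.18% higher and 4.53% lower, against 18.5% of the Rab genes. The median difference was -0.03 over the Rab genes and -0.01 over all genes. In 39 of the 54 Rab genes (72.2%) the groups did not overlap, which held for 55.4% of all genes. Only Rab19 and Rab3d differed by at least 1 on the log2 scale, and 22 of the 54 differed by less than 0.2. Both group means lay below the background level in 5 of the 54, and 1 of the means did so in 6.

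**Figure D1:**
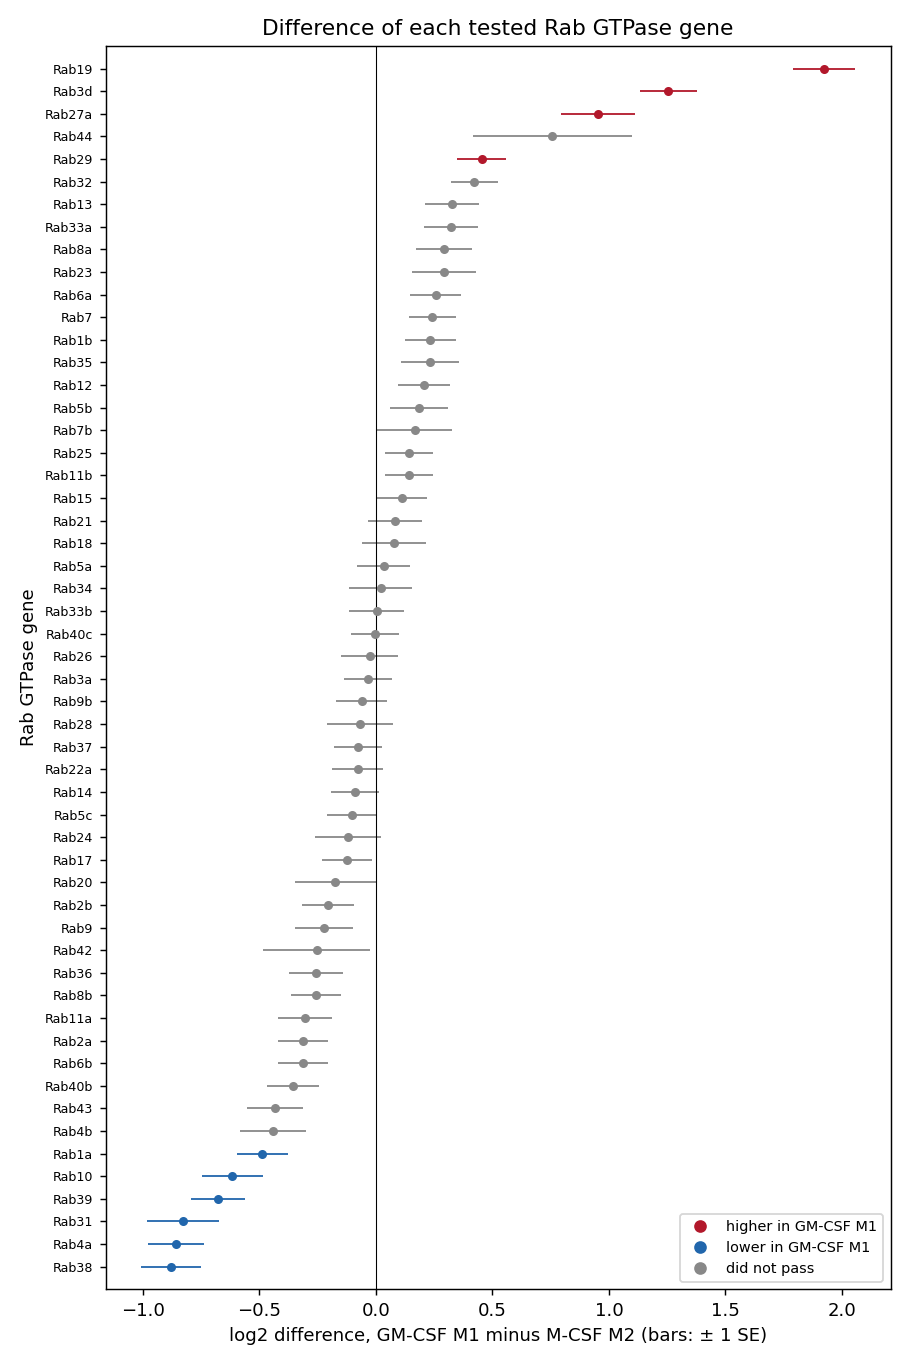
Log2 difference (GM-CSF M1 minus M-CSF M2, bars ± 1 SE, n = 2 arrays per group) of each of the 54 Rab GTPase genes tested, sorted from the highest to the lowest. Rab19 stands at the top with 1.92 and Rab38 at the bottom with -0.88, and the 44 grey genes between them did not pass the test.

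The arrays limited how firm these calls are. The GM-CSF M1 arrays differed from each other by an SD of 0.242 over the 54 Rab genes, and the M-CSF M2 arrays by 0.155, so leaving out an M-CSF M2 array leaves the wider pair to set the spread. Without M-CSF M2 replicate 1, 2 Rab genes were called (Rab19 and Rab3d), and without M-CSF M2 replicate 2, 1 was called (Rab19). Without a GM-CSF M1 array, only the narrower M-CSF M2 pair sets the spread, so genes pass more easily. That the called Rab genes kept their calls there is thus a weak check. Over all genes too, the number called fell without either M-CSF M2 array and rose without either GM-CSF M1 array. No direction of the 10 called Rab genes turned in any of these fits.

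Promoter sequences are shown for the 2 genes with the largest rise and for 2 genes that were lower, so that the regions in front of genes that moved in opposite directions can be read side by side. They are RefSeq windows of GRCm38.p6 that run from 250 bases before to 50 bases after the start of the gene, on the strand of the gene. The windows are chr6:39381103-39381402 (+) for Rab19, chr9:21918134-21918433 (-) for Rab3d, chr17:65772703-65773002 (-) for Rab31 and chr12:3309920-3310219 (-) for Rab10. Capitals mark the STAT core TTCNNNGAA in Rab19 and the GC box GGGCGG, on either strand, in the other three.
Rab19: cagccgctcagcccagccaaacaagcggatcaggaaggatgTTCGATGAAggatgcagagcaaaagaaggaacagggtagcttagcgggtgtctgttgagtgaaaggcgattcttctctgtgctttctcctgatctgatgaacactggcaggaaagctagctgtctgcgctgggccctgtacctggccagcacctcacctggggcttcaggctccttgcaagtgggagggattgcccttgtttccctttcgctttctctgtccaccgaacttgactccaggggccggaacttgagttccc
Rab3d: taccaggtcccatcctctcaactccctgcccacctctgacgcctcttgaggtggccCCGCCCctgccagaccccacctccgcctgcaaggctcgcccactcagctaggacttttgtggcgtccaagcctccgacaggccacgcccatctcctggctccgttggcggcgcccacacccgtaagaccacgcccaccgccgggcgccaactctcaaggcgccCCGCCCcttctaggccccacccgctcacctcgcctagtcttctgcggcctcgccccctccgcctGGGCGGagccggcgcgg
Rab31: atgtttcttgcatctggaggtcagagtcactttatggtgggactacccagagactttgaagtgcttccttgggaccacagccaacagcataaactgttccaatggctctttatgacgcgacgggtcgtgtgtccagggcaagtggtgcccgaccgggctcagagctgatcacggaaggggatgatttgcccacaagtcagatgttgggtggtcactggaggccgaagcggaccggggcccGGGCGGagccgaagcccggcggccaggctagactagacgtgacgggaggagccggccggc
Rab10: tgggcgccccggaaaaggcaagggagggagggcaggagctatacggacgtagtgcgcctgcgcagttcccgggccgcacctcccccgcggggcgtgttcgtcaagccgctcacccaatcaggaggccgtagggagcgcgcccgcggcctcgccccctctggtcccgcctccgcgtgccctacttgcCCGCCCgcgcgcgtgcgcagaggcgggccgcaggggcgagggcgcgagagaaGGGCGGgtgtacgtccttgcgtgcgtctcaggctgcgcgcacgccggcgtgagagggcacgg

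Of the 59 Rab GTPase genes, 48 matched the promoter table, with 60 windows. The GC box GGGCGG stood in 41 of these 60 windows (68.3%), against 35.7% of all 32851 windows of the table, and the median GC content was 61.2% for the Rab genes and 52.7% for all windows. All 4 windows of genes that were lower held it (Rab31, Rab10, Rab1a and Rab39), against 2 of the 5 windows of genes that were higher. Rab38 and Rab4a, which had the largest falls, had no window in the table and are not part of this count. The STAT core TTCNNNGAA stood in 8.33% of Rab windows and 8.30% of all windows, and the window of Rab19 held the single match among the called genes. The E-box CACGTG stood in 10% of Rab windows and 7.15% of all, and 1 of the 2 windows of Rab27a held the single match among the called genes. The cores GAGGAA (ETS, PU.1 type), TGANTCA (AP-1) and TATAAA (basal promoter) had no match in any window of a called gene on either strand. GAGGAA stood in 18.3% of Rab windows and 28.3% of all windows, TGANTCA in 5.0% and 7.81%, and TATAAA in 6.67% and 13.6%. No searched motif overlapped another in the windows shown, and a match is a description of these letters.

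Among Rab proteins of exocytosis and delivery to the plasma membrane, Rab3d and Rab27a rose in GM-CSF M1 cells and Rab10 fell. Of the 14 genes of this group, 11 were tested, with 2 higher, 1 lower and 8 that did not pass (median difference -0.03). The share that passed was 27.3%, against 10.7% of all genes. Rab3d, which sits on secretory granules, read 8.77 and 8.60 in GM-CSF M1, against 7.51 and 7.34 in M-CSF M2. Every GM-CSF M1 value lay above both M-CSF M2 values, and the difference was 2.39-fold (log2 1.26 ± 0.12 SE, adjusted p = 0.00246). Its call ended without M-CSF M2 replicate 2 (adjusted p = 0.0676).

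Rab27a docks secretory lysosomes, granules and exosome-bearing endosomes at the plasma membrane. It read 7.69 and 7.30 in GM-CSF M1, against 6.64 and 6.45 in M-CSF M2, with no overlap (1.94-fold, log2 0.95 ± 0.16 SE, adjusted p = 0.0159). Without M-CSF M2 replicates 1 and 2 its adjusted p was 0.138 and 0.192. Rab10, which carries vesicles to the plasma membrane and the Toll-like receptor TLR4 to the macrophage surface, read 11.07 and 11.36 in GM-CSF M1, against 11.85 and 11.82 in M-CSF M2. The groups did not overlap, and the M-CSF M2 values lay close together (log2 -0.62 ± 0.13 SE, adjusted p = 0.0351, with 0.271 and 0.249 without M-CSF M2 replicates 1 and 2).

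The other genes of this group did not pass. Rab8a and Rab8b share exocytic roles with Rab10. Rab8a read 11.38 and 11.60 in GM-CSF M1, against 11.22 and 11.18 in M-CSF M2 (0.29 ± 0.12). Rab8b read 11.05 and 10.94 in GM-CSF M1, against 11.28 and 11.22 in M-CSF M2 (-0.26 ± 0.11). The groups did not overlap in either gene, and the signs were opposite. Rab3a, known best from synaptic vesicles, read 6.12 and 6.12 in GM-CSF M1, against 6.12 and 6.19 in M-CSF M2, with overlap (-0.03 ± 0.10). Rab13 differed by 0.33 ± 0.12, Rab37, a granule Rab, by -0.08 ± 0.10, and Rab26, another granule Rab, by -0.03 ± 0.12. Rab40b (-0.36 ± 0.11) and Rab40c (-0.0042 ± 0.10), which work with ubiquitin ligases, differed in the same range. Rab27b, Rab3b and Rab3c stayed under the filter, with values between 4.30 and 4.82 on the arrays.

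**Figure D2:**
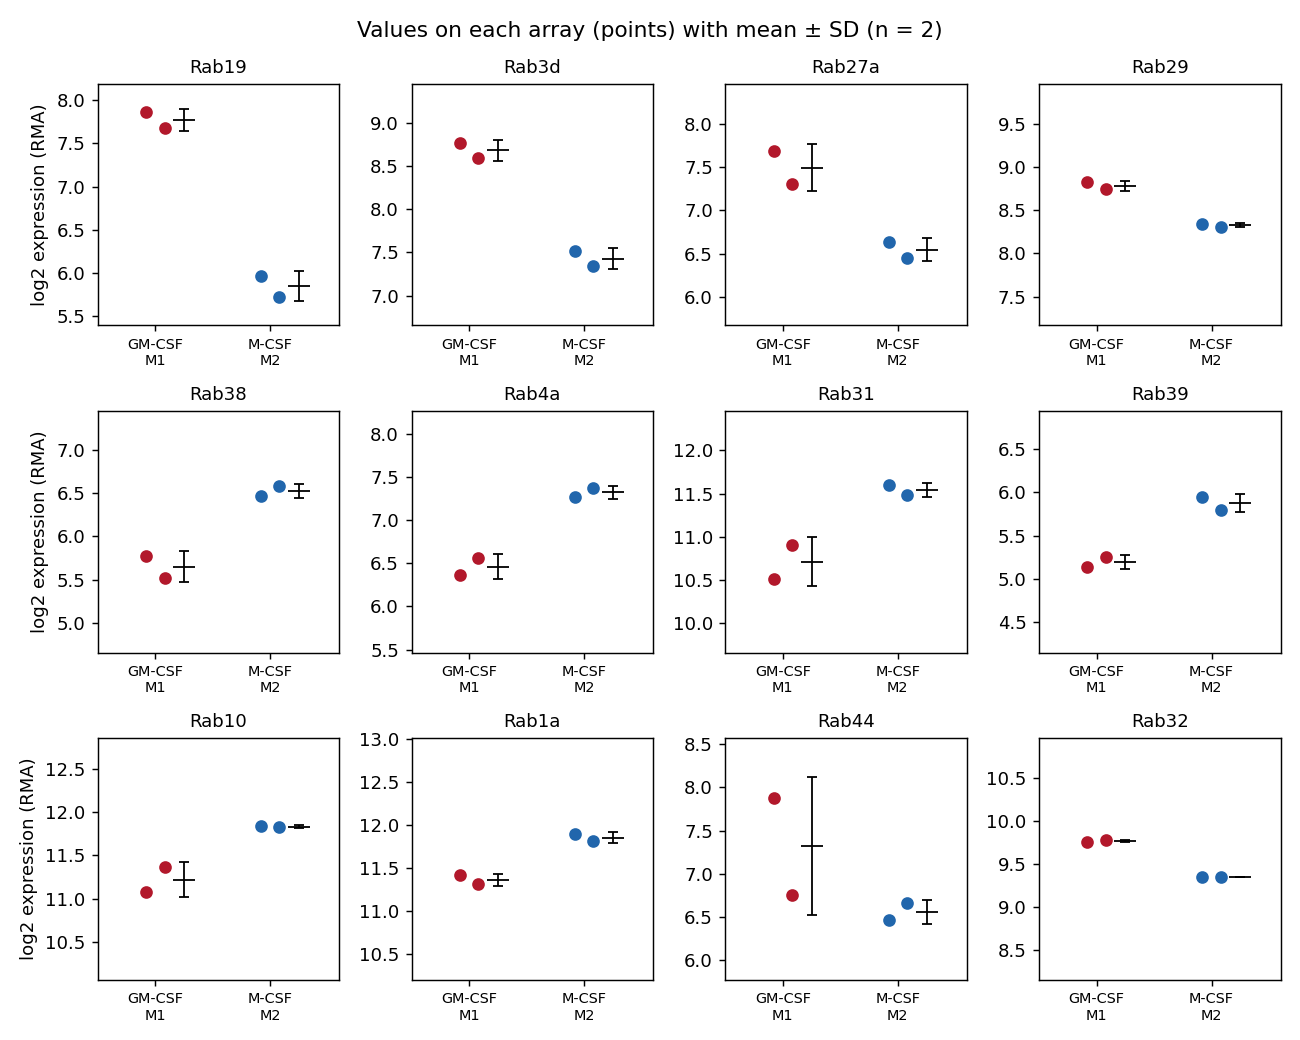
Log2 expression on each array (points) with mean ± SD (n = 2) for the 10 Rab genes that passed the test and for Rab44 and Rab32, GM-CSF M1 left and M-CSF M2 right, each panel spanning the same 2.8 log2 units. The groups are apart in all 12 panels, and the GM-CSF M1 arrays of Rab44 lie far from each other at 7.88 and 6.75.

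Among Rab proteins of the endoplasmic reticulum, Golgi and secretory route, Rab19 rose and Rab1a and Rab39 fell in GM-CSF M1 cells. Of 15 genes, 13 were tested and 10 did not pass (median difference -0.21). The share that passed was 23.1%, against 10.7% of all genes. Rab19, a little-studied member of a Golgi-associated branch, read 7.86 and 7.68 in GM-CSF M1, against 5.97 and 5.73 in M-CSF M2. The groups lay far apart (3.79-fold, log2 1.92 ± 0.13 SE, adjusted p = 0.000697), and the call held in all 4 fits that left out an array, with adjusted p up to 0.0322. The M-CSF M2 mean of 5.85 lay below the background level, so the fold depends on the background.

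Rab1a, which directs vesicles from the endoplasmic reticulum to the Golgi, read 11.42 and 11.32 in GM-CSF M1, against 11.90 and 11.81 in M-CSF M2. The groups did not overlap and the difference was modest (log2 -0.49 ± 0.11 SE, adjusted p = 0.0404). The call ended with no filter (adjusted p = 0.0588) and without M-CSF M2 replicates 1 and 2 (0.302 and 0.227). Its near-copy Rab1b differed the other way without passing, at 11.02 and 11.13 in GM-CSF M1, against 10.80 and 10.88 in M-CSF M2 (0.23 ± 0.11). Rab39, named in work on human cells for Golgi and phagosome traffic, read 5.14 and 5.25 in GM-CSF M1, against 5.95 and 5.80 in M-CSF M2 (log2 -0.68 ± 0.11 SE, adjusted p = 0.0164, with 0.194 and 0.133 without M-CSF M2 replicates 1 and 2). Both group means of Rab39 lay below the background level of 5.90, and it was not tested under the stricter filter.

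The other Golgi and secretory Rab genes did not pass. Rab43, of the Golgi, came nearest, at 8.19 and 8.41 in GM-CSF M1, against 8.76 and 8.71 in M-CSF M2 (-0.43 ± 0.12, limma adjusted p = 0.0769). Its difference ran from -0.55 to -0.32 over the fits that left out an array. Rab2a (-0.31 ± 0.11) and Rab2b (-0.21 ± 0.11), which act between the endoplasmic reticulum and the Golgi, lay below 0. Rab6a, which serves transport within and back through the Golgi, differed by 0.26 ± 0.11 and its relative Rab6b by -0.31 ± 0.11. Rab18, linked to lipid droplets, differed by 0.08 ± 0.14, Rab33b, linked to autophagy, by 0.0033 ± 0.12, Rab33a by 0.32 ± 0.12 and Rab36 by -0.26 ± 0.11. Rab33a had both group means below the background level. Rab30 and Rab39b stayed under the filter, with values between 4.26 and 5.04.

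Among Rab proteins of the early endosome, Rab31 fell in GM-CSF M1 cells and the 6 other genes did not pass (median difference of the 7 genes -0.08). The share that passed was 14.3%, against 10.7% of all genes. Rab31, also called Rab22b, acts between the trans-Golgi network and endosomes. It read 10.52 and 10.91 in GM-CSF M1, against 11.60 and 11.48 in M-CSF M2. The GM-CSF M1 arrays were themselves apart but both lay below M-CSF M2 (log2 -0.83 ± 0.16 SE, adjusted p = 0.0237, with 0.236 and 0.187 without M-CSF M2 replicates 1 and 2). The difference was -0.63 without GM-CSF M1 replicate 1 and -1.03 without GM-CSF M1 replicate 2. Rab5a, Rab5b and Rab5c, which organise early endosomes and young phagosomes, differed by 0.03 ± 0.11, 0.19 ± 0.12 and -0.10 ± 0.11. Rab22a, the nearest relative of Rab31, read 8.64 and 8.71 in GM-CSF M1, against 8.82 and 8.69 in M-CSF M2, with overlap (-0.08 ± 0.11). Rab21, which carries integrins, differed by 0.08 ± 0.12, and Rab20, a phagosome Rab of macrophages, by -0.17 ± 0.18.

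Among the 9 recycling endosome genes, Rab4a fell and 8 did not pass (median difference -0.09). The share that passed was 11.1%, against 10.7% of all genes. The groups did not overlap in any of the 9, against no overlap in 55.4% of all genes. Rab4a, which returns receptors quickly from early endosomes to the surface, read 6.36 and 6.56 in GM-CSF M1, against 7.27 and 7.37 in M-CSF M2 (log2 -0.86 ± 0.12 SE, adjusted p = 0.00849). Its adjusted p was 0.111 and 0.14 without M-CSF M2 replicates 1 and 2. Rab4b, its paralog, read 9.08 and 9.41 in GM-CSF M1, against 9.64 and 9.74 in M-CSF M2, and did not pass (-0.44 ± 0.14, limma adjusted p = 0.112). The difference of Rab4b ran from -0.61 to -0.28 over the fits that left out an array. Rab11a, the Rab of slow recycling, differed by -0.30 ± 0.12, Rab14, of endosome and Golgi exchange, by -0.09 ± 0.10 and Rab35, of rapid recycling, by 0.23 ± 0.12. Rab11b differed by 0.14 ± 0.10 with its brighter probe set and by -0.17 with the mean of its probe sets, so its direction depends on the probe set. Rab15 (0.11 ± 0.11) had both group means below the background level. Rab17 (-0.12 ± 0.11) and Rab25 (0.14 ± 0.10), known from epithelia, lay near it.

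None of the 9 genes of late endosomes, lysosomes and autophagy passed the test with limma, against 10.7% of all genes, so few calls would be looked for among 9. At an unadjusted p under 0.05 there were 0, against 3821 of all 14995 genes. The median difference of the 9 was 0.02. Rab7, the main Rab of late endosomes and of phagosome fusion with lysosomes, read 11.51 and 11.55 in GM-CSF M1, against 11.27 and 11.31 in M-CSF M2. The groups did not overlap, but the difference of 0.24 ± 0.10 did not pass (adjusted p = 0.209). Rab7b, a relative of Rab7 described in myeloid cells, differed by 0.17 ± 0.16, Rab9, which returns receptors from late endosomes to the Golgi, by -0.23 ± 0.12, and Rab12 by 0.21 ± 0.11. Rab24, linked to autophagy, differed by -0.12 ± 0.14, Rab34, linked to lysosome positioning, by 0.02 ± 0.14, Rab9b by -0.06 ± 0.11 and Rab42 by -0.25 ± 0.23. In Rab9b and Rab42, both group means lay below the background level.

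Rab44, a large Rab described in mouse osteoclasts and mast cells, had the widest spread of the family. It read 7.88 and 6.75 in GM-CSF M1, against 6.46 and 6.66 in M-CSF M2, and was the single Rab gene with GM-CSF M1 arrays at least 2-fold apart. The difference of 0.76 ± 0.34 did not pass (limma adjusted p = 0.236). It was 0.19 without GM-CSF M1 replicate 1 and 1.32 without GM-CSF M1 replicate 2, so its size hung on 1 array. Of the 9 neutrophil markers, 6 were higher on GM-CSF M1 replicate 1 than on replicate 2 and 3 were lower (Mpo, Elane and Camp). The 9 neutrophil markers had mean log2 levels of 6.56 and 5.88 in GM-CSF M1, against 6.05 and 6.03 in M-CSF M2, and S100a8 read 8.54 and 7.04 in GM-CSF M1, against 6.96 and 6.84 in M-CSF M2. Mpo, a granule enzyme of neutrophil precursors, was the 1 neutrophil marker that passed, lower in GM-CSF M1 (log2 -0.64, limma adjusted p = 0.0132). The 9 mast cell and basophil markers averaged 5.22 and 4.96 in GM-CSF M1, against 4.91 and 4.98 in M-CSF M2, and 6 of them lay below background on every array. Of the 9, 4 were higher on GM-CSF M1 replicate 1 than on replicate 2 and 5 were lower. Cpa3, Hdc and Kit were the ones that reached the background level on some array. They read 5.91, 6.61 and 6.30 on GM-CSF M1 replicate 1, against 4.46, 5.89 and 5.75 on GM-CSF M1 replicate 2. All 7 cell cycle genes were also higher on GM-CSF M1 replicate 1 than on replicate 2 (mean log2 8.11 and 7.80), against 7.93 and 7.73 in M-CSF M2. Of the 8 dendritic cell markers, 5 were higher on replicate 1 and 3 lower. For the 8 macrophage markers these counts were 4 and 4, and for the 7 T and NK cell markers 1 and 6. The part of other cells or of the cell cycle in the level of Rab44 was not tested.

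The Rab32 branch, which serves lysosome-related organelles, held a gene that rose and a gene that fell. Of its 3 genes, 66.7% passed, against 10.7% of all genes. Rab29 read 8.82 and 8.74 in GM-CSF M1, against 8.35 and 8.31 in M-CSF M2, with tight pairs and no overlap (log2 0.45 ± 0.10 SE, adjusted p = 0.0454). In human cells Rab29 can recruit the kinase LRRK2 to membranes. Its call ended with no filter (adjusted p = 0.0666), with arrays centred on their medians (0.0527) or on the median of the genes tested (0.0577), and without M-CSF M2 replicates 1 and 2 (0.273 and 0.286). Rab32, known from mitochondria and from vacuoles that hold bacteria, read 9.76 and 9.77 in GM-CSF M1, against 9.34 and 9.34 in M-CSF M2 and just missed the threshold (0.42 ± 0.10, adjusted p = 0.0516). It passed after quantile normalization (0.0442), with trended and robust variances (0.0367) and with the stricter filter (0.0401). It stayed uncalled with no filter, with either centring of the arrays and with the mean of all probe sets. The difference was between 0.41 and 0.43 whichever array was left out.

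Rab38, the close partner of Rab32 in making pigment granules, went the other way. It read 5.78 and 5.52 in GM-CSF M1, against 6.47 and 6.59 in M-CSF M2, without overlap (log2 -0.88 ± 0.13 SE, adjusted p = 0.00989, with 0.118 and 0.155 without M-CSF M2 replicates 1 and 2). Its GM-CSF M1 mean of 5.65 lay below the background level, so the size of the fall depends on the background. The cilium-related Rab23 (0.29 ± 0.14) and Rab28 (-0.07 ± 0.14) did not pass.

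Close relatives were also set against each other within each array, by taking the log2 difference between the genes of a pair and subtracting its mean over the M-CSF M2 arrays. The 7 pairs were picked after the called genes were known, so their values are a description. With 2 arrays against 2, the smallest p an exact permutation test can give is 0.333, so that test could not pass, and no other was run on the pairs. Rab38 minus Rab32 stood at -1.17 and -1.43 on the GM-CSF M1 arrays, Rab10 minus Rab8a at -0.94 and -0.88, and Rab1a minus Rab1b at -0.62 and -0.83. In each of these pairs the differences of the genes had opposite signs. Rab3d minus Rab3a stood at 1.38 and 1.20, Rab31 minus Rab22a at -0.91 and -0.59, and Rab4a minus Rab4b at -0.35 and -0.48. Rab29 minus Rab32 stood at 0.08 and -0.02 on the GM-CSF M1 arrays, against 0.02 and -0.02 on the M-CSF M2 arrays, and the groups overlapped.

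**Figure D3:**
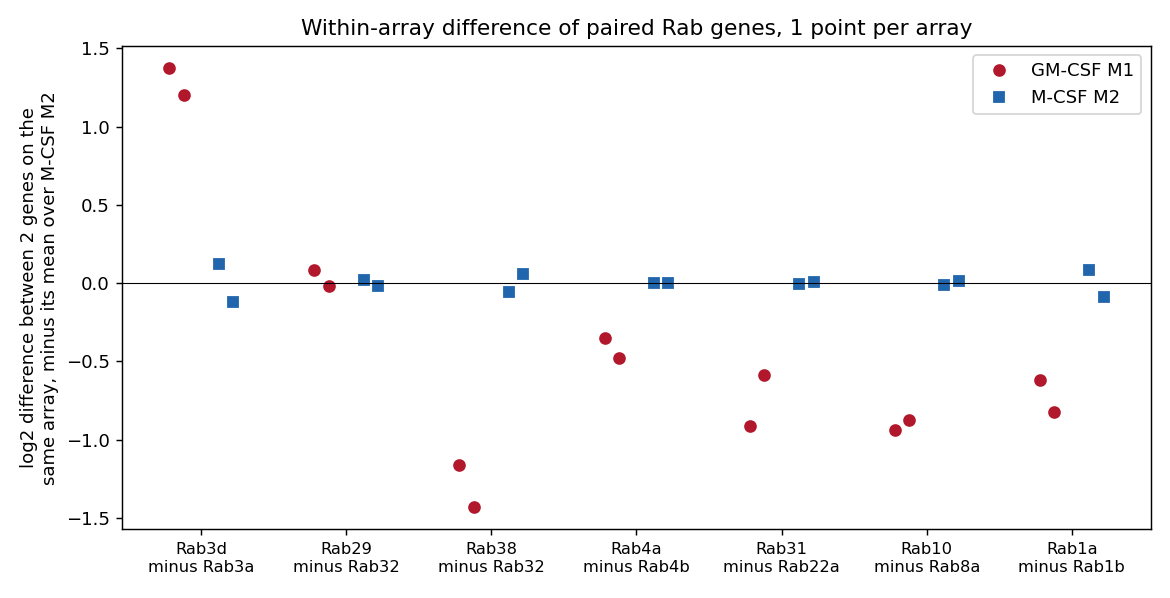
Log2 difference between the genes of a pair on the same array, minus its mean over the M-CSF M2 arrays, with 1 point per array (circles GM-CSF M1, squares M-CSF M2). The groups are apart in 6 of the 7 pairs and overlap for Rab29 minus Rab32.

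The genes that switch and read Rab proteins were counted in 5 lists, of exchange factors, GTPase-activating proteins, prenylation and membrane cycle, effectors and Rab-like GTPases. Of 167 genes tested, 9 were higher in GM-CSF M1 and 13 lower (13.2% called, against 10.7% of all genes), with a median difference of -0.02. Without M-CSF M2 replicate 1 or replicate 2, 3 of them were called (Dennd3, Trappc2 and Rab11fip1), and without GM-CSF M1 replicates 1 and 2, 34 and 44.

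Of 47 exchange factors tested, 3 rose and 5 fell (17.0% called, against 10.7% of all genes). Dennd3, which in human cells activates Rab12, read 8.05 and 8.20 in GM-CSF M1, against 6.21 and 6.19 in M-CSF M2 (3.80-fold, log2 1.92 ± 0.11 SE, adjusted p = 0.000381). Dennd2a, an exchange factor for Rab9 in human cells, rose by 0.995 ± 0.14. Trappc2, a subunit of the TRAPP complexes that activate Rab1 and Rab11, read 9.35 and 9.59 in GM-CSF M1, against 11.25 and 11.10 in M-CSF M2 (log2 -1.70 ± 0.13 SE, adjusted p = 0.000954). Rab3il1 read 8.81 and 9.07 in GM-CSF M1, against 10.18 and 10.13 in M-CSF M2 (log2 -1.21 ± 0.13 SE, adjusted p = 0.00299, with 0.0777 and 0.0752 without M-CSF M2 replicates 1 and 2). Madd, which activates Rab3 and Rab27 proteins, had a log2 difference of -0.83 ± 0.13, and Dennd6a, which activates Rab14, -0.79 ± 0.12. The direction of Madd was thus opposite to that of Rab3d and Rab27a. Of the exchange factors named here, Dennd2a, Madd and Dennd6a lost their calls without M-CSF M2 replicate 1 (adjusted p = 0.0633, 0.15 and 0.148) and replicate 2 (0.118, 0.0953 and 0.134).

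Of 40 GTPase-activating proteins tested, 1 rose and 5 fell (15.0% called, against 10.7% of all genes). Tbc1d4, which restrains Rab10 and insulin-driven glucose transporter traffic, read 6.75 and 6.10 in GM-CSF M1, against 8.02 and 7.90 in M-CSF M2 (log2 -1.53 ± 0.21 SE, adjusted p = 0.00829). Rab10 was lower in the same cells. Tbc1d14, linked to Rab11 and autophagy, had a difference of -0.74 ± 0.11 and Rab3gap2, a subunit of the complex that acts on Rab3 proteins, -0.66 ± 0.14. Tbc1d2b (-0.80 ± 0.12), Tbc1d31 (-0.55 ± 0.10) and Tbc1d9 (0.54 ± 0.11) were the others. All 6 lost their calls without an M-CSF M2 array, with adjusted p from 0.127 to 0.292.

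Of 62 effectors tested, 5 rose and 3 fell (12.9% called, against 10.7% of all genes). Lrrk2, a kinase that phosphorylates Rab proteins, read 8.26 and 8.86 in GM-CSF M1, against 6.90 and 6.45 in M-CSF M2 (3.71-fold, log2 1.89 ± 0.24 SE, adjusted p = 0.00576, with 0.0633 and 0.104 without M-CSF M2 replicates 1 and 2). Rab11fip1, a partner of Rab11 in recycling, read 8.51 and 8.38 in GM-CSF M1, against 7.05 and 6.69 in M-CSF M2 (2.98-fold, log2 1.58 ± 0.15 SE, adjusted p = 0.0022). Micall2 (1.13 ± 0.10), Ehbp1 (1.14 ± 0.20) and Mical1 (0.90 ± 0.17), which bind Rab8, Rab10 or Rab13 and link them to actin, rose as well. Vps33a (-0.69 ± 0.11), Plekhm1 (-0.55 ± 0.12) and Osbpl1a (-0.58 ± 0.13), which act with Rab7 at late endosomes and lysosomes, fell. Micall2, Ehbp1, Mical1, Vps33a, Plekhm1 and Osbpl1a lost their calls without an M-CSF M2 array, with adjusted p from 0.0547 to 0.304. None of the 10 genes of prenylation and the membrane cycle and none of the 8 Rab-like GTPases passed (limma), against 10.7% of all genes. Their differences ran from -0.39 to 0.16 and from -0.43 to 0.48. At an unadjusted p under 0.05 there were 2 and 2, against 3821 of all 14995 genes.

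**Figure D4:**
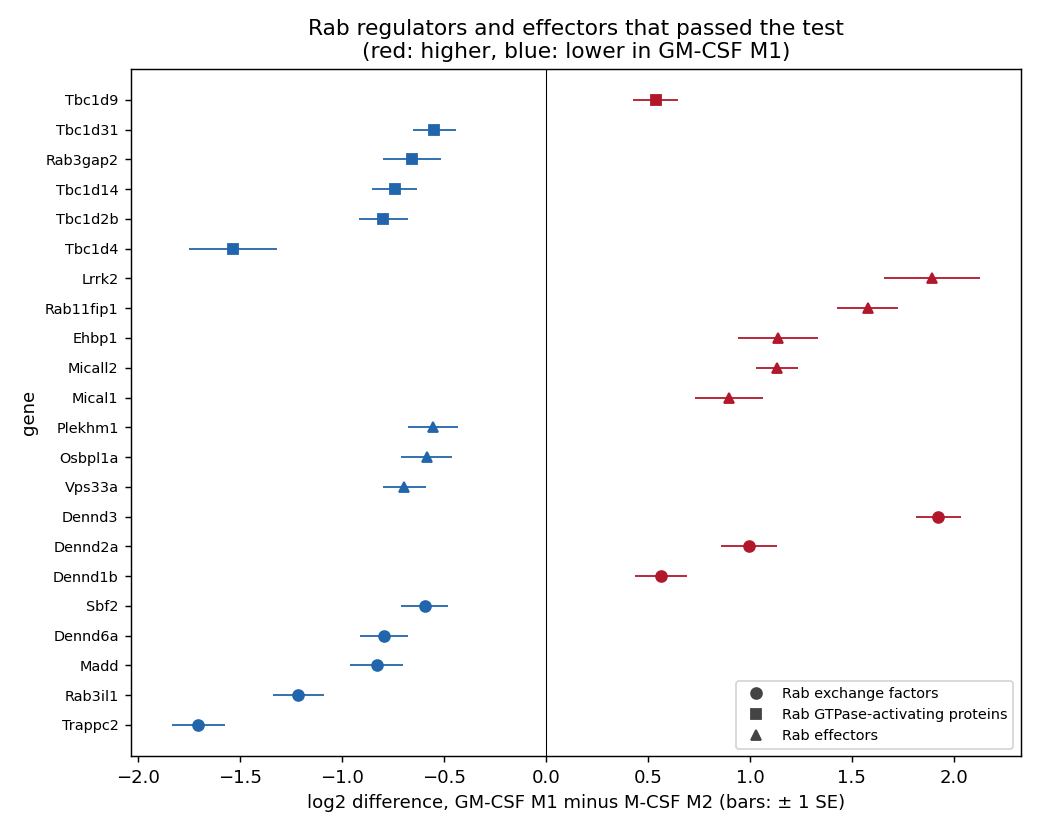
Log2 difference (GM-CSF M1 minus M-CSF M2, bars ± 1 SE, n = 2 arrays per group) of the 22 regulators and effectors that passed the test, by list. Dennd3 (1.92) and Lrrk2 (1.89) lie farthest to the right and Trappc2 (-1.70) farthest to the left.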

How the data were processed

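Total RNA (300 ng per sample) of sorted cells was amplified, biotin-labelled and read on 1-colour Affymetrix arrays, as the labels' protocols state. The deposited values are log2 expression per probe set, computed by the authors with RMA. The submitters' processing notes name Affymetrix Expression Console 1.1 for this. RMA subtracts background and brings all arrays to one distribution, so small differences of dim genes shrink and a change in total RNA per cell is invisible. Without scan dates or detection calls, no batch could be tested, and no genome build is named.

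Of 35556 probe sets, 21789 had 1 gene symbol, 1621 several and 12146 none listed, and 0 of the several-symbol probe sets named a Rab gene. A gene was represented by the probe set with the highest mean over the 4 arrays. Of the Rab GTPase genes, 3 had more than 1 (Rab11b, Rab2a and Rab5b), and their values are those of the brighter one. Genes were tested when at least 2 arrays lay above the 30th percentile of that array, and 14995 genes did so. The test was that of limma 3.58.1 in R 4.3.3, with its moderated statistic (lmFit, eBayes) and a two-sided p adjusted by Benjamini-Hochberg, on 2 residual and 4.17 prior degrees of freedom. Folds are powers of the log2 difference. The fit was tested on data simulated with the fitted spread of each gene, with a change added to 50 genes at each size. It called 26% of the genes changed by log2 0.5 and 98% of those changed by log2 1. All genes changed by log2 2 or 3 were called, and 24 unchanged genes were called as well. The simulated spread was the same in both groups. In the data, the GM-CSF M1 arrays differed by an SD of 0.325 over all genes tested and the M-CSF M2 arrays by 0.180. Far fewer genes were changed in the simulation than the 1605 that passed in the data. The shares called thus describe the simulated setting only. Python 3.11.15, pandas 2.3.3 and matplotlib 3.10.9 made the tables and plots. The precision is limited by the number of arrays.

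The members, lists of roles, regulators and markers, and motifs were chosen with earlier results of these data known. All 59 Rab GTPase genes are accounted for. Values on every array are given for called Rab genes, for uncalled ones that differed by at least 0.5 and for the paralogs paired with called ones. Genes under the filter are given as a range. With their lists, 6 called exchange factors and all called GTPase-activating proteins and effectors are named. Values of further genes, such as Rab43, Rab7 and the paralog pairs, were chosen after they were seen. Other settings were no filter, a stricter filter (50th percentile), averaging all probe sets per gene, quantile normalization, arrays centred on medians, a replicate block, trended and robust variances, and each array left out in turn. Centring on the median of the genes tested was added after seeing the data.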

Additional observations from a re-analysis of the deposited data

How the results depend on the processing

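The number of called Rab GTPase genes was 8 with no filter, 10 with the filter at the 50th percentile, 11 after quantile normalization, 9 with arrays centred on their medians or on the median of the genes tested, 10 with the mean of all probe sets and 11 with trended and robust variances, against 10 as reported. With the replicate block it was 9, 22 regulators and effectors were called, and Rab29 (adjusted p = 0.0614) and Plekhm1 (0.054) lost their calls. Same-numbered arrays deviated together with r = 0.065 across genes, so the numbers were not taken to pair the arrays. With no filter, Rab1a, Rab29, Dennd1b, Rab3gap2, Plekhm1 and Osbpl1a lost their calls, where more genes were tested. Over the fits that left out an array, the called Rab genes numbered from 1 to 14, the called regulators and effectors from 3 to 44, and all called genes from 233 to 3205. With arrays centred on the median of the genes tested, 841 of all genes were higher and 865 lower, against 926 and 679 as reported.

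Of the uncalled Rab genes, those named here, with reported differences between -0.25 and 0.17, changed sign, and the cause was not tested. The difference of Rab11b was -0.17 with the mean of all probe sets. Rab33b differed by -0.024 after quantile normalization, and centring on the median of the genes tested gave -0.040 for Rab33b, -0.023 for Rab34 and -0.010 for Rab5a. Over the fits that left out an array, the difference ran from -0.083 to 0.24 for Rab18, from -0.41 to 0.061 for Rab20, from -0.26 to 0.023 for Rab24 and from -0.14 to 0.090 for Rab26. It ran from -0.24 to 0.10 for Rab28, from -0.093 to 0.10 for Rab33b, from -0.10 to 0.14 for Rab34 and from -0.068 to 8.2e-05 for Rab3a. It ran from -0.023 to 0.015 for Rab40c, from -0.61 to 0.10 for Rab42, from -0.042 to 0.11 for Rab5a and from -0.014 to 0.35 for Rab7b. Genes whose means lie near the background level can have their differences compressed.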
